A study of Mus musculus with 9 samples.

Results

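Lungs of mice that had breathed the aerosol of IQOS, a heated tobacco product, were compared directly with lungs of mice that had breathed cigarette smoke (CS). The comparison rested on the 3 arrays titled IQOS and the 3 titled CS, 6 of the 9 arrays in the study. All mice were male C57BL/6J animals, 12 weeks old when exposure began, and exposure to a 3.5% IQOS aerosol or to 3.5% CS lasted 6 months. A control group of 3 arrays came from mice kept in fresh air over the same period and gave the unexposed level of each gene. Total RNA of whole lung was labelled with Cy3 and hybridised to one-colour Agilent mouse arrays. Whole lung mixes all lung cell types, so fewer cells of a type and less RNA per cell cannot be told apart in any value below. The labels do not say that each array came from a separate mouse, and the p-values therefore measure the spread between these samples, which may be technical. Whether the 3.5% of the one exposure delivers the same amount of any constituent as the 3.5% of the other is not stated.

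The arrays were similar in brightness. Between 64.3% and 68.8% of probes were well above background, with 65.6% to 66.2% on the CS arrays and 66% to 68.8% on the IQOS arrays. Marker genes of lung epithelium and vessels were present on every array. Sftpc of alveolar type II cells had a signal of 565 to 648 times the array's 75th percentile over the 9 arrays, and Ager of alveolar type I cells 248 to 295 times. The CS arrays shared a slide and a scan with the air arrays, while the IQOS arrays filled a second slide, so an effect of the slide cannot be told apart from that of IQOS. Within their slides, the CS arrays and air 3 were in array row 2, and the IQOS arrays and the remaining air arrays in row 1. Between 181 and 220 spots were left out as outliers on the 4 arrays of row 2, against 62 to 96 on the 5 arrays of row 1. Only the air arrays hold both rows within a group, so they alone inform an array row term. When that term was added 83 probes were called, and among the genes named below the calls were kept for Ahrr, Cyp1b1, Awat1, Moxd2, Stra6l, Atp13a5 and Il1a, while every other call ended. The differences themselves mostly stayed near their size: of 162 called genes or probes followed, 133 had a log2 difference within 1.5 times that without the row term, 28 were smaller and 1 larger. Cyp1a1 read -6.35 and Gpnmb -1.90 with the term, while Arntl read 0.82 and Spon2 0.95.

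Inhaled smoke meets several well known response systems in the lung. Polycyclic hydrocarbons formed by burning bind the aryl hydrocarbon receptor (AhR), which switches on the cytochromes Cyp1a1 and Cyp1b1 and its own repressor Ahrr. Electrophiles and oxidants release the transcription factor NRF2 from its partner KEAP1, and NRF2 raises genes for glutathione synthesis, quinone reduction and thioredoxin. Alveolar macrophages take up particles and surfactant lipid, and long smoke exposure is known to load them with both, while emphysema is marked by loss of the elastic fibres of the alveolar wall.

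The transcriptomes of the IQOS and CS lungs differed at 3590 of 37258 tested probes, 9.64% of them, at an adjusted p under 0.05 in limma with Benjamini-Hochberg adjustment. The signal with IQOS aerosol was higher at 2126 probes (5.71% of those tested) and lower at 1464 (3.93%). Most differences were small. The median change of a called probe was 0.47 on the log2 scale where IQOS was higher and -0.50 where it was lower, and 440 probes differed at least 2-fold, 185 of them higher and 255 lower. The largest differences ran toward lower signal with IQOS: 55 called probes were at least 4-fold lower and 18 at least 4-fold higher, and 27 against 2 passed 8-fold. Counted by gene, with each of 16593 genes represented by its brightest probe, 1679 genes (10.1%) were called, 820 (4.94%) higher and 859 (5.18%) lower, and the median change of all genes was 0.02. Over all genes 8830 of 16593 differences were positive and 4859 had an unadjusted p under 0.05. The higher probes more often lacked a gene name: 1064 of the 2126 matched no symbol, against 278 of the 1464 lower probes (19.0%) and 34.9% of all probes tested. The number of calls depended on single arrays. It was 1273 without CS 2, 1617 without CS 3, 1597 without IQOS 1, 1420 without IQOS 2, 2089 without IQOS 3 and 2212 without air 1.

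**Figure D1:**
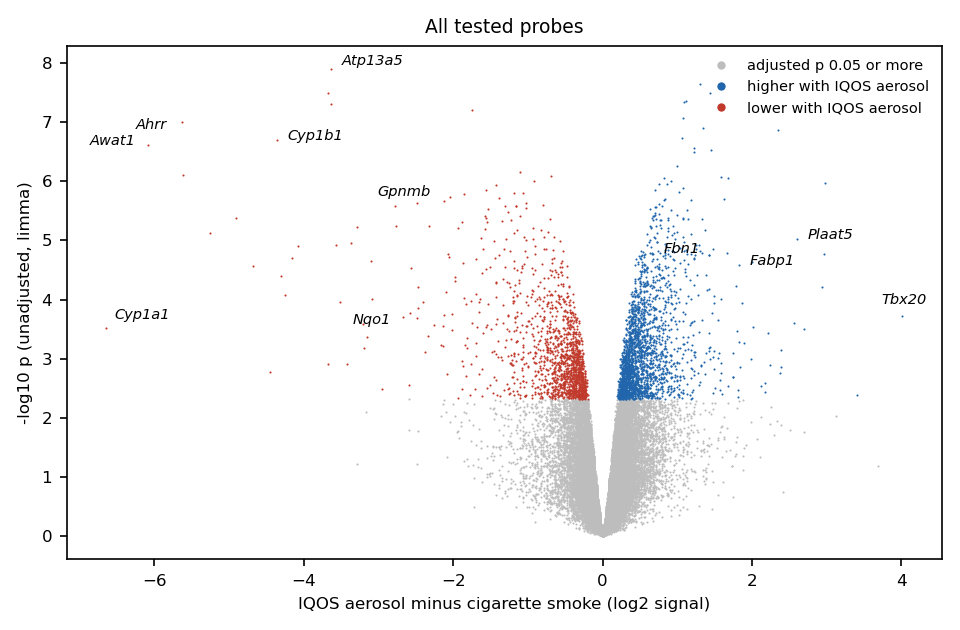
Each point is 1 of 37258 tested probes, with the difference in log2 signal between IQOS aerosol and cigarette smoke on the x axis and the unadjusted limma p as -log10 on the y axis. Blue points mark the 2126 probes called higher with IQOS aerosol and red points the 1464 called lower, and the far left of the plot holds Cyp1a1, Awat1 and Ahrr.

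Genes driven by AhR held the largest difference between the exposures, that of Cyp1a1. Of 18 tested genes in a list of AhR targets and phase I enzymes, 5 were called lower with IQOS and 0 higher, with a list median of -0.27. The share called lower over all tested genes was 5.18%. Cyp1a1, the AhR-induced cytochrome that oxidises polycyclic hydrocarbons, had a signal of 99.7, 103 and 100 on CS 1, CS 2 and CS 3. On the IQOS arrays it was 0.335, 0.364 and 8.51, and in air it was 0.163, 0.238 and 0.241, each as a multiple of the array's 75th percentile. The groups were far apart, but IQOS 3 stood well above the other IQOS arrays. The fitted difference was -6.64 ± 1.09 on the log2 scale (SE, 3 arrays a group, limma adjusted p = 0.013), a 99.7-fold higher mean with CS. Against air, 3.72% of probes were called for IQOS (2.74% higher and 0.98% lower) and 10.3% for CS (4.63% higher and 5.68% lower). For Cyp1a1 the same fit, whose comparisons share arrays, gave 8.91 for CS (adjusted p = 0.00607) and 2.27 for IQOS (adjusted p = 0.273).

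Cyp1b1, a second AhR-induced cytochrome, had signals of 25.4, 25.6 and 20.7 with CS, 0.833, 1.05 and 1.79 with IQOS and 0.531, 0.448 and 0.632 in air. IQOS lay between air and CS without touching either group, and much nearer to air. It differed from CS by -4.36 ± 0.27 (adjusted p = 0.000524) and from air by 1.13 (adjusted p = 0.0604). Ahrr, the AhR repressor, had signals of 1.17, 1.16 and 0.67 with CS, 0.0139, 0.0174 and 0.0309 with IQOS and 0.0136, 0.0149 and 0.0164 in air. Its IQOS values were within the range of dim probes, with 1 of 3 arrays well above background, and the difference was -5.63 ± 0.32 (adjusted p = 0.000371). Aldh3a1, an aldehyde dehydrogenase induced through AhR, was at 51.9, 69.8 and 60.6 with CS, 7.69, 12.2 and 13.5 with IQOS and 8.26, 7.95 and 9.45 in air. The IQOS and air arrays overlapped, and the difference from CS was -2.48 ± 0.21 (adjusted p = 0.00178). The fifth call, Cyp2b10, was far smaller at -0.34 ± 0.08 (adjusted p = 0.0338) and was lost when air 3 or any 1 of the CS or IQOS arrays was left out.

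The promoters of Ahrr and Cyp1b1 are shown as the AhR list genes with the smallest adjusted p. Both genes also kept their calls with array row as a covariate and with any single array left out. The windows shown are the 250 bases before the RefSeq start in build GRCm38.p6, with GCGTG, the core of the AhR response element, in capitals on either strand. Ahrr lies on chromosome 13 (chr13:74292332-74292581, minus strand) and Cyp1b1 on chromosome 17 (chr17:79715062-79715311, minus strand).
Ahrr: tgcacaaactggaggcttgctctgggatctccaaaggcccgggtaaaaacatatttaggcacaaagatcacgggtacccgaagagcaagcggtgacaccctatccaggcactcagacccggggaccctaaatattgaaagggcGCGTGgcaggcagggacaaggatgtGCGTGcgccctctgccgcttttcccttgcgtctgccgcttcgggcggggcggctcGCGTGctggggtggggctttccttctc
Cyp1b1: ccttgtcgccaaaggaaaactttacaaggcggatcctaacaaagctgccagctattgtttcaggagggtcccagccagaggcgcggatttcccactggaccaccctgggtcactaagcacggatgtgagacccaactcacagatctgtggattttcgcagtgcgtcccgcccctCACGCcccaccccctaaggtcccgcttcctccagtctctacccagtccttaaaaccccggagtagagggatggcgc
The Ahrr window holds 3 matches, of which those nearest the start lie 82 and 27 bases before it, and the Cyp1b1 window holds 1 match on the opposite strand 76 bases before it. GCGTG occurs in 9250 of 32841 RefSeq promoter windows of this length (28.2%). It occurs in 7 of the 14 tested list genes with a window (50%), counting a gene once over all its starts, and in 4 of 4 called genes with a window, Ahrr, Cyp1a1, Cyp1b1 and Cyp2b10. Aldh3a1 has no window. These matches describe the sequence and were not tested.

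**Figure D2:**
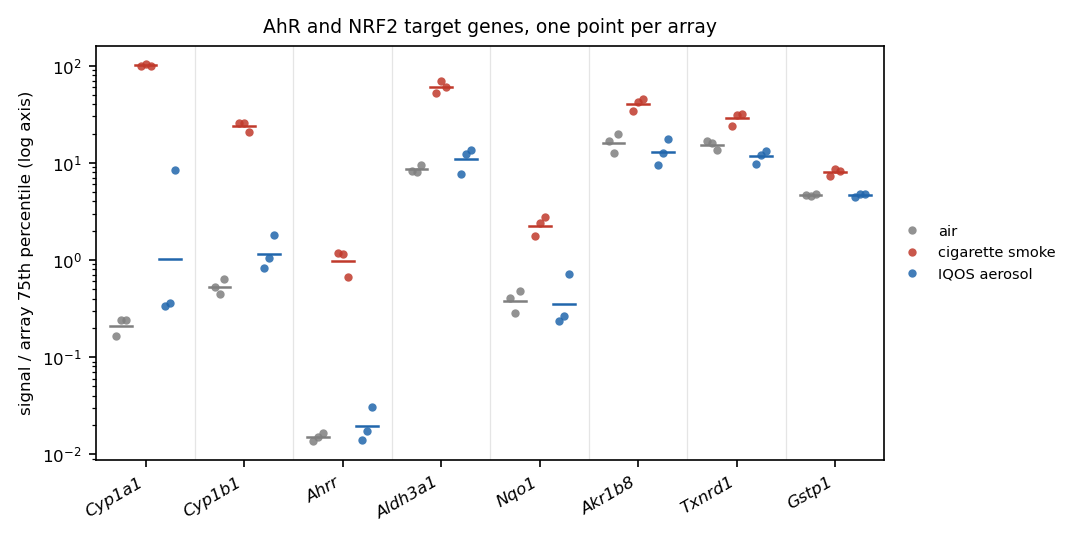
Signal of 4 AhR and 4 NRF2 target genes on each array as a multiple of the array's 75th percentile, on a log axis, with air in grey, cigarette smoke in red and IQOS aerosol in blue; bars are means of log2 values. The smoke arrays lie above both other groups for all 8 genes, and Cyp1a1 on IQOS 3 reads 8.51 against 0.335 and 0.364 on the other IQOS arrays.

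Among 38 tested NRF2 target genes 20 were called lower and 1 higher, Gstm2, against 5.18% and 4.94% of all tested genes. The list median was -0.55. The groups did not overlap for 31 of the 38, where 35.3% of all tested genes had groups that did not overlap. Nqo1, the quinone reductase most often used to read NRF2 activity, had signals of 1.76, 2.38 and 2.75 with CS, 0.235, 0.266 and 0.71 with IQOS and 0.408, 0.285 and 0.48 in air. The IQOS arrays spanned the air range and stayed below all CS arrays, with a difference of -2.67 ± 0.41 (adjusted p = 0.0108). Txnrd1, thioredoxin reductase, was at 24.1, 31.2 and 32 with CS, 9.78, 12.1 and 13.3 with IQOS and 16.8, 16 and 13.6 in air. All IQOS arrays lay below all air arrays here, but the difference from air, -0.40, missed the threshold (adjusted p = 0.181), while that from CS was -1.31 ± 0.15 (adjusted p = 0.00428).

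Other members covered the main branches of the response. The glutathione transferase Gstp1 was at 7.24, 8.68 and 8.27 with CS against 4.46, 4.81 and 4.75 with IQOS (-0.78 ± 0.08, adjusted p = 0.00273). The aldo-keto reductase Akr1b8 was at 33.8, 42.6 and 45 with CS and at 9.4, 12.5 and 17.7 with IQOS (-1.65 ± 0.25, adjusted p = 0.00974). Nfe2l2, which encodes NRF2 itself, differed by -0.84 ± 0.13 (adjusted p = 0.0106). In each of these the groups were separate. Both subunits of the enzyme that makes glutathione were lower, Gclc by -1.69 ± 0.30 (adjusted p = 0.0172) and Gclm by -1.09 ± 0.22 (adjusted p = 0.023). Srxn1, which repairs oxidised peroxiredoxin, was at 23.2, 32.4 and 38.9 with CS, 5.93, 9.26 and 12.4 with IQOS and 21.1, 24.8 and 14.6 in air, a difference from CS of -1.81 ± 0.32 (adjusted p = 0.0157). Its IQOS arrays were all below the air arrays, with a difference of -1.16 from air (adjusted p = 0.0855). Abcc1, an exporter of glutathione conjugates, was lower with IQOS than in both groups, by -0.55 from CS (adjusted p = 0.0319) and -0.74 from air (adjusted p = 0.0237). The transporter Slc7a11, which imports cystine, read 0.823, 1.62 and 2.64 with CS and 0.0923, 0.291 and 0.598 with IQOS and just missed the threshold.

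The number of NRF2 calls leaned on single arrays. It was 5 without CS 2, 7 without CS 3, 9 without IQOS 1 and 8 without IQOS 2, where the median stayed between -0.56 and -0.46, and it was 8 in a fit of the IQOS and CS arrays alone. Among the genes above, Gstp1, Txnrd1, Akr1b8, Nfe2l2 and Nqo1 kept their calls with any single array left out. Srxn1 and Gclc were lost without CS 2 or CS 3, Gclm without CS 2, CS 3, IQOS 1 or IQOS 2, and Abcc1 without those or air 3.

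Promoters of Gstp1 and Txnrd1 are shown as the NRF2 genes with the smallest adjusted p, with GCGTG and the antioxidant response element core TGACNNNGC, searched on both strands, in capitals. A TGACNNNGC match can hold GCGTG on the opposite strand, and in the Txnrd1 window shown the matches do not overlap. Gstp1 lies on chromosome 19 (chr19:4037913-4038162, minus strand), and Txnrd1, shown at 1 of its 3 RefSeq starts, on chromosome 10 (chr10:82858956-82859205, plus strand).
Gstp1: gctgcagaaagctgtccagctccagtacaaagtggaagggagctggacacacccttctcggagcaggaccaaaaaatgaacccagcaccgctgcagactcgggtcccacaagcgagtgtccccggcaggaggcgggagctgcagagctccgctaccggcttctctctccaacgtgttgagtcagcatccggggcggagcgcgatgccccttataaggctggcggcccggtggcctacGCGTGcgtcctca
Txnrd1: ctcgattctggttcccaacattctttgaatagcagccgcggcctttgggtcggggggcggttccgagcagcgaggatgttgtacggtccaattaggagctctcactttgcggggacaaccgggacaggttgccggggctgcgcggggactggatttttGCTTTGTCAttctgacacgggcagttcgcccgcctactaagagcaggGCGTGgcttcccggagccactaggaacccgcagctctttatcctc
The Txnrd1 window holds TGACNNNGC once, on the opposite strand 92 bases before the start, and GCGTG 45 bases before it. The windows at the other Txnrd1 starts hold 0 matches of TGACNNNGC. The Gstp1 window holds GCGTG 13 bases before the start. TGACNNNGC was found in 3338 of 32841 windows (10.2%), in 9 of 33 NRF2 list genes with a window (27.3%) and in 8 of the 17 called lower (47.1%). A list gene counts if any of its starts has a match, while the share over all windows counts each start, so the shares are not alike. In the AhR list it was found in 1 of 14 genes, Arnt. GCGTG was found in 19 of the 33 NRF2 list genes (57.6%) and in 11 of the 17 (64.7%).

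The metal-binding metallothioneins Mt1 and Mt2 were lower with IQOS. Mt1 was at 161, 175 and 176 with CS, 65.8, 63.5 and 84 with IQOS and 56.8, 51.1 and 57.8 in air, and differed by -1.27 ± 0.11 (adjusted p = 0.00199). Mt2 differed by -1.56 ± 0.14 (adjusted p = 0.00199), with IQOS signals of 39.6, 35.7 and 51.2 that overlapped air. The remaining metallothionein on the list, Mt3, read 0.17 and was not called (adjusted p = 0.333). The zinc importer Slc39a4 was the remaining call among 14 tested genes of the metallothionein and zinc transporter list, which had 3 lower, 0 higher and a median of -0.07. Of all tested genes, 5.18% were called lower. Slc39a4 (-0.50 ± 0.11, adjusted p = 0.0351) was called without IQOS 1 or IQOS 3 and lost without any other array.

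Of 36 tested genes of lysosomes and lipid handling in macrophages, 19 were called lower and 0 higher, with a median of -0.34, and 25 had groups that did not overlap. Over all tested genes 5.18% were called lower and 35.3% had groups that did not overlap. Gpnmb, a lysosomal membrane glycoprotein of lipid-laden macrophages, was at 2.9, 2.1 and 3.12 with CS, 0.638, 0.664 and 0.543 with IQOS and 0.494, 0.652 and 0.664 in air. The IQOS and air arrays overlapped, all CS arrays were higher, and the difference was -2.12 ± 0.18 (adjusted p = 0.00175). Ctsk, a cathepsin that cleaves collagen and elastin, was at 24.2, 16.5 and 18.9 with CS, 4.49, 4.99 and 4.81 with IQOS and 3.89, 4.31 and 5.51 in air, a difference of -2.04 ± 0.17 (adjusted p = 0.00172). The same pattern held for Ctsd, the main lysosomal aspartic protease (-0.92 ± 0.07, adjusted p = 0.00136), for Atp6v0d2, a subunit of the proton pump that acidifies lysosomes (-1.56 ± 0.12, adjusted p = 0.00156), and for Cd68, a macrophage lysosomal marker (-1.31 ± 0.11, adjusted p = 0.00178). Trem2, a lipid receptor of macrophages, was lower by -1.60 ± 0.17 (adjusted p = 0.00347). Lgals3, which encodes galectin-3, was at 81.5, 83.9 and 94.2 with CS, 39.4, 43.9 and 42.1 with IQOS and 53.9, 46.9 and 60.8 in air, so its IQOS arrays lay below all air arrays too, with a difference of -1.05 ± 0.11 from CS (adjusted p = 0.00273) and -0.36 from air (adjusted p = 0.103).

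Among 26 markers of alveolar macrophages 14 were called lower and 1 higher, against 5.18% and 4.94% of all tested genes, with a median of -0.56. The other 11 were not called, among them Siglecf, the sialic acid lectin that marks these cells, at 0.17 (adjusted p = 0.438), named after its value was seen. Itgax, the integrin CD11c, was at 10.5, 8.8 and 9.68 with CS, 4.98, 4.77 and 4.47 with IQOS and 4.3, 4.52 and 4.98 in air (-1.02 ± 0.09, adjusted p = 0.00183). The coagulation factor F7 (-0.93 ± 0.11, adjusted p = 0.00484), the mannose receptor Mrc1 (-0.65 ± 0.08, adjusted p = 0.00512) and the chitinase-like Chil3 (-1.12 ± 0.14, adjusted p = 0.00581) were lower. Fabp1, a fatty acid binding protein on that list, went the other way: its signals were 0.593, 0.88 and 0.64 with CS, 2.64, 2.4 and 2.35 with IQOS and 3.42, 1.98 and 2.83 in air, 1.83 ± 0.21 higher with IQOS (adjusted p = 0.00419). The scavenger receptor Marco was at 25.7, 11.6 and 22.8 with CS, 6.2, 5.05 and 4.75 with IQOS and 3.28, 1.68 and 2.17 in air, between the groups with no overlap (-1.84 ± 0.34 from CS, adjusted p = 0.0178, and 1.21 from air, adjusted p = 0.0884). The Marco call was lost without CS 3, IQOS 2 or IQOS 3.

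Of the 26 differences, 5 were positive. The summed signal of the 26 alveolar macrophage markers was 467 to 553 with CS, 289 to 334 with IQOS and 281 to 307 in air, and that of the 36 lysosomal genes was 978 to 1030, 738 to 775 and 743 to 772. The part of macrophage number in these differences was not tested. Monocyte and interstitial macrophage markers gave 3 lower and 1 higher call among 25, where 10.1% of all tested genes were called, with a median of -0.13. These calls were the Fc receptors Fcgr3 and Fcgr4, Cd14 and, higher, Itgam, each lost in several fits without 1 array. That list had 0 calls without CS 2 or CS 3, 1 without air 1 or any 1 of the IQOS arrays and 2 without air 2 or air 3, and another Itgam probe read -0.15 (adjusted p = 0.616). The lysosomal list had 12 calls without CS 2, and the alveolar macrophage list 11 to 15 lower calls over all fits without 1 array.

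**Figure D3:**
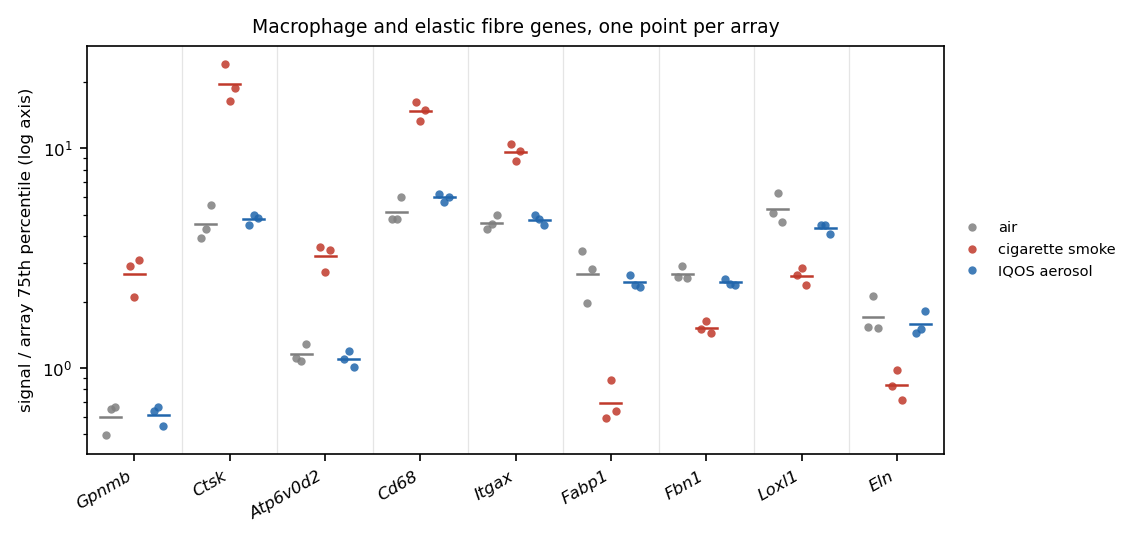
Signal of 6 macrophage genes and 3 elastic fibre genes on each array as a multiple of the array's 75th percentile, on a log axis, with air in grey, cigarette smoke in red and IQOS aerosol in blue; bars are means of log2 values. Gpnmb, Ctsk, Atp6v0d2, Cd68 and Itgax are highest on the smoke arrays, while Fabp1, Fbn1, Loxl1 and Eln are lowest there.

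Inflammatory mediators were lower with IQOS in 11 of 33 tested cytokine and chemokine genes and higher in 0, with a median of -0.49. Of all tested genes, 5.18% were lower. Ccl6, a macrophage chemokine, was at 83.3, 74.7 and 89 with CS, 32.7, 30 and 38.2 with IQOS and 27.7, 26.9 and 35 in air (-1.29 ± 0.13, adjusted p = 0.00277). Il6 was at 1.21, 0.518 and 0.722 with CS, 0.16, 0.118 and 0.14 with IQOS and 0.146, 0.234 and 0.103 in air (-2.47 ± 0.36, adjusted p = 0.00905). In both, IQOS overlapped air and stayed below CS. The neutrophil attractants Cxcl1 (-2.02 ± 0.31, adjusted p = 0.0101) and Cxcl2 (-1.98 ± 0.25, adjusted p = 0.0051), the monocyte attractant Ccl2 (-1.07 ± 0.19, adjusted p = 0.0157) and the epithelial alarmins Il33 (-1.03 ± 0.17, adjusted p = 0.0127) and Il1a (-1.49 ± 0.25, adjusted p = 0.0133) were lower too. Il1a was well above background on 0 IQOS arrays and at least 2.17-fold lower, a bound from the background limit, and its call was lost without CS 2, that of Ccl2 without IQOS 2. The list had 7 lower calls without CS 2 or without IQOS 1 and 6 without IQOS 2.

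Acute phase genes were lower in 9 of 16 and higher in 0, against 5.18% and 4.94% of all tested genes, with a median of -0.55. Orm1, which encodes an acid glycoprotein, was at 0.941, 0.824 and 1.08 with CS, 0.12, 0.142 and 0.335 with IQOS and 0.244, 0.242 and 0.286 in air (-2.40 ± 0.34, adjusted p = 0.00817). Its close copy Orm2 differed by -2.58 ± 0.39 (adjusted p = 0.00984), and probes of such close copies may share signal. Saa3, a serum amyloid A made in lung, was at 7.75, 4.01 and 9.63 with CS, 0.966, 1.3 and 1.87 with IQOS and 0.925, 0.71 and 1.51 in air (-2.33 ± 0.40, adjusted p = 0.0153, lost without IQOS 1 or IQOS 2). The fibrinogen chain Fgg was lower by -2.25 ± 0.37 (adjusted p = 0.0124). The list had 5 calls without IQOS 1 or without IQOS 2.

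Neutrophil markers had a list median of -1.03, which was -0.42 without IQOS 2 and -0.65 without CS 3. The calls were 2 lower and 1 higher among 27 genes, near the 10.1% called over all tested genes. There was 1 lower call without CS 2, CS 3, IQOS 2 or IQOS 3. Cxcr1, a receptor for neutrophil attractants, was at 1.74, 1.22 and 2.53 with CS, 0.28, 0.0858 and 0.28 with IQOS and 0.0996, 0.213 and 0.111 in air (-3.21 ± 0.52, adjusted p = 0.0121). Cd177, a neutrophil surface protein, was at 0.973, 0.629 and 0.949 with CS and at 0.107, 0.0368 and 0.0141 with IQOS (-4.45 ± 0.96, adjusted p = 0.0299), a call that was lost without IQOS 2, IQOS 3 or any 1 of the CS arrays. Elane, neutrophil elastase, ran opposite: 0.844, 0.869 and 0.853 with CS, 1.18, 1.62 and 1.34 with IQOS and 0.822, 0.796 and 0.785 in air. It was higher with IQOS than with CS by 0.68 ± 0.11 (adjusted p = 0.0113) and than in air by 0.77 (adjusted p = 0.0142). Il1r2, a decoy receptor abundant in neutrophils, was named after its values were seen. It read 4.12, 7.92 and 9.2 with CS, 4.97, 0.919 and 3.25 with IQOS and 0.418, 0.628 and 0.785 in air, with IQOS overlapping CS (-1.45, adjusted p = 0.167). The summed signal of the 27 markers was 388 to 854 with CS and 207 to 265 in air, and with IQOS it was 487, 213 and 482, so IQOS 2 alone lay in the air range. The part of neutrophil number was not tested.

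**Figure D4:**
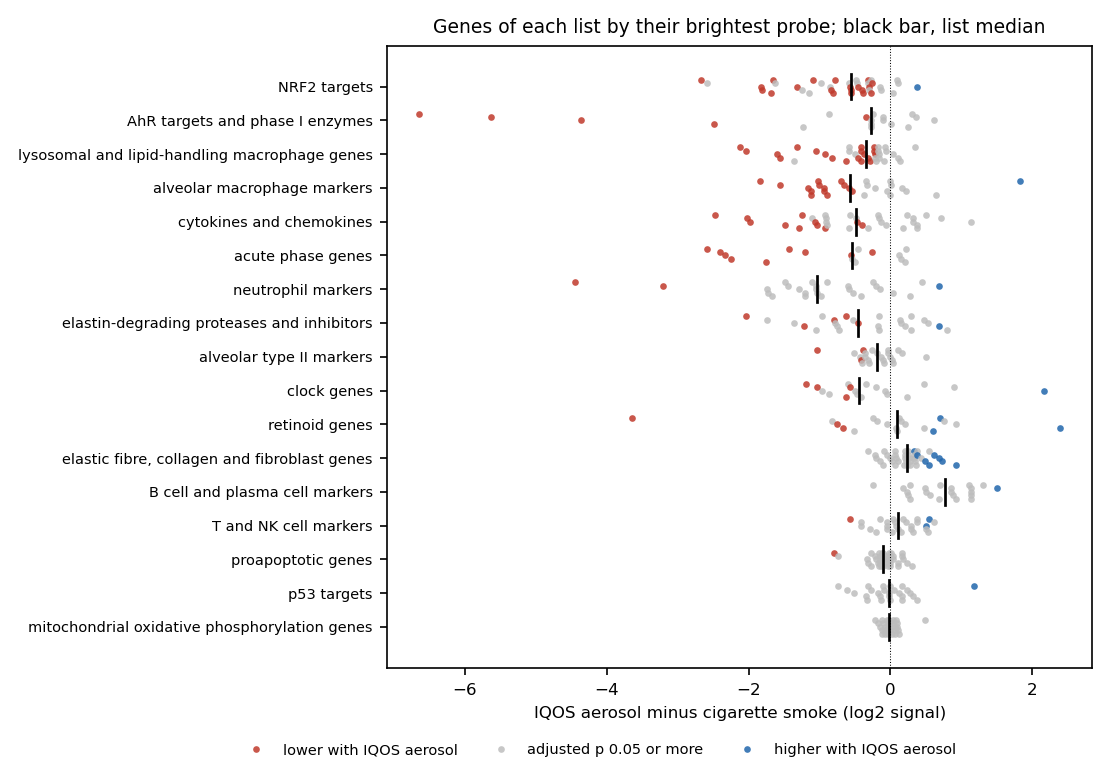
Each point is a tested gene of a list, by its brightest probe, at its difference in log2 signal between IQOS aerosol and cigarette smoke, with calls in blue (higher with IQOS) and red (lower) and the list median as a black bar. The NRF2, macrophage, cytokine and acute phase lists lie left of 0, the elastic fibre and B cell lists right of 0, and the oxidative phosphorylation list holds 0 calls.

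Among 40 genes of elastic fibres, collagen and fibroblasts, 8 were called higher and 0 lower, against 4.94% and 5.18% of all tested genes. The median was 0.24 with 32 of 40 positive. Fbn1, whose product fibrillin scaffolds elastic fibres, was at 1.51, 1.64 and 1.44 with CS, 2.55, 2.42 and 2.39 with IQOS and 2.59, 2.91 and 2.56 in air. All CS arrays lay below the others and the difference was 0.68 ± 0.08 (adjusted p = 0.0037). Loxl1, which crosslinks elastin, was at 2.64, 2.86 and 2.39 with CS, 4.5, 4.47 and 4.06 with IQOS and 5.07, 6.24 and 4.64 in air (0.73 ± 0.12, adjusted p = 0.0127). Eln, elastin itself, was at 0.83, 0.978 and 0.719 with CS, 1.45, 1.51 and 1.82 with IQOS and 1.54, 2.12 and 1.53 in air (0.92 ± 0.17, adjusted p = 0.017, lost without CS 3), and its other probe read 0.64 (adjusted p = 0.096). Col5a1, a fibril collagen, was 0.54 ± 0.10 higher (adjusted p = 0.0187, lost without CS 2, CS 3 or IQOS 1). The summed signal of the list was 781 to 852 with CS, 827 to 903 with IQOS and 928 to 993 in air, so the exposed groups overlapped. The number of higher calls was 5 without CS 2, 3 without CS 3, 3 without IQOS 1 and 4 without IQOS 2, and was 4 in the fit of IQOS and CS arrays alone.

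Contractile and vessel lists are given beside the 10.1% of all tested genes that were called in either direction. In smooth muscle and pericyte markers 1 of 16 was called higher, Lmod1, a smooth muscle actin nucleator, at 0.0466, 0.0454 and 0.0433 with CS, 0.067, 0.0791 and 0.0681 with IQOS and 0.0756, 0.0733 and 0.0749 in air (0.66 ± 0.08, adjusted p = 0.00387). Among 29 endothelial markers 2 were higher and 1 lower, with a median of 0.12, and among 14 lymphatic and mesothelial markers, which share Krt19 and Krt8 with the club cell list, 2 were higher and 3 lower. Aplnr, the apelin receptor of capillary endothelium, was at 0.217, 0.274 and 0.229 with CS, 0.393, 0.472 and 0.491 with IQOS and 0.699, 0.574 and 0.648 in air. Its 3 groups did not overlap, with 0.92 ± 0.13 between IQOS and CS (adjusted p = 0.0074) and -0.50 between IQOS and air (adjusted p = 0.0699). Heart muscle markers, which a lung sample can carry along, gave 0 calls among 18 (1 at an unadjusted limma p under 0.05) but 16 were positive, with a median of 0.53 and a summed signal of 133 to 226 with CS and 226 to 341 with IQOS. Their part in these differences was not tested.

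Among elastin-degrading proteases and their inhibitors 5 of 25 were lower and 1 higher, against 5.18% and 4.94% of all tested genes, with a median of -0.46. The lower genes were Ctsk and Ctss, which are also on the lysosomal list, the metalloprotease Mmp19, Adam8, and the inhibitor Timp3, which read 98, 94.5 and 96.1 with CS, 66.6, 75.6 and 67.7 with IQOS and 79.4, 69.4 and 72.4 in air (-0.46 ± 0.07, adjusted p = 0.0123). The higher gene was Elane. Mmp12, the macrophage elastase tied to smoke emphysema in mice, was at 0.427, 0.155 and 0.431 with CS, 0.11, 0.0928 and 0.167 with IQOS and 0.137, 0.121 and 0.132 in air. CS 2 lay among the IQOS values, and the difference of -1.36 ± 0.40 missed the threshold (adjusted p = 0.0691). The protease list had 3 lower calls without CS 2, CS 3, IQOS 1 or IQOS 2.

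Krt19 and Krt8, keratins of simple epithelia, were lower with IQOS. Krt19 was at 34.4, 43.4 and 40.5 with CS, 15.8, 21.2 and 17.5 with IQOS and 27.4, 24.6 and 31.3 in air. Its IQOS arrays were the lowest of the 9, by -1.12 ± 0.14 against CS (adjusted p = 0.00542) and by -0.62 against air (adjusted p = 0.0563). Krt8 was at 47.9, 51.4 and 47.1 with CS, 21.4, 31.8 and 25.8 with IQOS and 30.5, 31.8 and 31.1 in air (-0.91 ± 0.13, adjusted p = 0.00812). Club cell markers had 5 lower calls among 21, namely Krt19, Krt8, Krt18, Sftpd and Hp, and 0 higher, with a median of -0.16. For this list and the alveolar lists below, 5.18% of all tested genes were called lower and 10.1% in either direction. Krt19 also stands on the alveolar macrophage and mesothelial lists and Krt8 on the mesothelial list, and the basal cell keratin Krt5 read -0.08 and was not called (adjusted p = 0.963). Scgb1a1, the defining club cell secretory protein, was at 489 to 577 over the 9 arrays (-0.13, adjusted p = 0.174). The club cell count was 2 without air 1, CS 2, CS 3, IQOS 1 or IQOS 3 and 3 without air 3 or CS 1. Alveolar type II markers gave 3 lower calls among 23, Il33, Sftpd and Ctsh, with a median of -0.19, and 1 to 5 calls in fits without 1 array (1 without air 1, CS 2, CS 3, IQOS 1 or IQOS 3, and 5 without IQOS 2). Alveolar type I markers gave 0 calls among 17, 4 of them at an unadjusted limma p under 0.05.

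Ciliated cell markers had 2 higher and 1 lower among 22, where 10.1% of all tested genes were called. The lower gene was Ccno, a cyclin of the cells that form many cilia, at 1.63, 1.18 and 0.94 with CS, 0.462, 0.429 and 0.644 with IQOS and 0.389, 0.385 and 0.367 in air (-1.28 ± 0.21, adjusted p = 0.0134). Gmnc, a regulator of the same process, ran opposite at 0.0196, 0.00721 and 0.00656 with CS, 0.0453, 0.0659 and 0.0852 with IQOS and 0.0425, 0.08 and 0.066 in air. It was well above background on 0 CS arrays, so a bound is given: at least 2.37-fold higher with IQOS, with a fitted 2.70 ± 0.45 (adjusted p = 0.0133). Such bounds set the measured group against the background limit of the other, and they hold only for the background subtraction used. With another background correction (normexp), each gene given a bound had a difference below it. The log2 values were 0.75 for Gmnc, 1.43 for Tbx20, 0.54 for Daam2 and -0.57 for Il1a. They were -2.82 for Awat1, -2.18 for Moxd2, -1.07 for Atp13a5 and -1.1 for the dimmer Stra6l probe.

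B cell and plasma cell markers were higher with IQOS in 21 of 22 genes by sign, with a median of 0.78, but 1 of the 22 was called. That gene was Spib, a B cell transcription factor, at 1.14, 0.662 and 0.552 with CS, 2.68, 1.38 and 2.52 with IQOS and 2.55, 1.42 and 1.71 in air (2.82-fold higher, adjusted p = 0.0401, lost without air 1, air 3, CS 2, CS 3, IQOS 1 or IQOS 3). In all, 13 of the 22 genes, Spib included, had an unadjusted p under 0.05, against 4859 of 16593 over all genes, and 8830 of the 16593 were positive. The summed signal of the list was 35.7 to 48.6 with CS, 46.7 to 68.9 with IQOS and 40.5 to 66.3 in air. T and NK cell markers had 2 higher and 1 lower call among 27, near the 10.1% of all tested genes that were called. Cd4, the helper T cell coreceptor, was at 2.36, 2.46 and 2.45 with CS, 3.26, 3.53 and 3.49 with IQOS and 2.17, 2.06 and 2.28 in air, higher with IQOS than with CS by 0.50 ± 0.06 (adjusted p = 0.00558) and than in air by 0.66 (adjusted p = 0.00543). Its other probe read 0.30 (adjusted p = 0.224). Cd247, the T cell receptor zeta chain, was 0.55 ± 0.06 higher (adjusted p = 0.00364), while its other probes read 0.18 and -0.29 and were not called. Lymphoid chemokines and related genes had 2 higher and 0 lower among 11, with a median of 0.39, namely Glycam1 and the chemokine Ccl21a. Glycam1, a sugar-bearing ligand made by lymph node venules, was at 0.502, 0.483 and 0.484 with CS, 0.63, 0.752 and 0.726 with IQOS and 0.43, 0.397 and 0.456 in air (0.52 ± 0.08, adjusted p = 0.0124).

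Early response and clock genes differed in a few strong members. These lists stand beside the 5.18% of all tested genes called lower and the 4.94% called higher. Of 22 immediate early genes 4 were lower and 0 higher. Fosl1, an AP-1 subunit, was at 0.273, 0.384 and 0.454 with CS, 0.0204, 0.0688 and 0.055 with IQOS and 0.239, 0.258 and 0.362 in air. CS overlapped air and IQOS lay below both, by -3.09 ± 0.43 from CS (adjusted p = 0.00775) and -2.72 from air (adjusted p = 0.0217). Myc was at 1.09, 0.96 and 1.02 with CS, 0.41, 0.491 and 0.485 with IQOS and 0.537, 0.89 and 0.545 in air (-1.15 ± 0.19, adjusted p = 0.0129), and Ier3 was lower by -1.08 ± 0.13 (adjusted p = 0.00428). Among 18 clock genes 4 were lower and 1 higher, with a median of -0.44 (2 lower without IQOS 1 or IQOS 3) that turned to 0.09 with array row as a covariate. Bhlhe40 (-1.03 ± 0.15, adjusted p = 0.00818) and Per2 (-1.19 ± 0.20, adjusted p = 0.0138), which repress the clock's activators, were lower. Arntl, the activator BMAL1, was at 0.22, 0.224 and 0.389 with CS, 1.08, 1.58 and 1.02 with IQOS and 0.502, 1.67 and 0.36 in air. IQOS and air overlapped, and the air arrays spread widely. The difference of 2.17 ± 0.53 (adjusted p = 0.0436) was lost without air 1 or any 1 of the CS or IQOS arrays. Its other probes read 1.79 (adjusted p = 0.161) and 1.88 (adjusted p = 0.0509).

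Retinoid genes were called in both directions, 3 higher and 3 lower among 19, against 4.94% and 5.18% of all tested genes. Cyp26b1, which breaks down retinoic acid, was at 0.696, 1.66 and 0.972 with CS, 8.05, 5.01 and 4.01 with IQOS and 4.77, 13.1 and 6.76 in air. The CS arrays were separate from both other groups (2.39 ± 0.45, adjusted p = 0.02, lost without CS 3, IQOS 1 or IQOS 2). Stra6, the retinol uptake receptor, was at 4.19, 3.66 and 4.02 with CS, 6.38, 6.7 and 6.13 with IQOS and 4.93, 5.33 and 4.56 in air. It was higher with IQOS than with CS by 0.70 ± 0.08 (adjusted p = 0.00428) and than in air by 0.38 (adjusted p = 0.0486). Its relative Stra6l was at 0.696, 0.707 and 0.839 with CS, 0.067, 0.0473 and 0.0679 with IQOS and 0.0399, 0.0564 and 0.0397 in air (-3.64 ± 0.19, adjusted p = 0.000262), and its second, dimmer probe gave at least 3.35-fold lower signal with IQOS. The list had 2 higher and 1 lower call without CS 2, 1 and 1 without CS 3, 1 and 2 without IQOS 1 and 1 and 1 without IQOS 2.

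The lists of cell death genes held few calls. Over all tested genes 5.18% were called lower and 4.94% higher. Among 40 proapoptotic genes 1 was lower, Casp4, an inflammatory caspase, and 0 were higher, with a median of -0.10. Among 20 antiapoptotic genes 3 were lower (Pim1, Bcl2a1d and Birc3) and 0 higher, and that count was 0 without CS 3 and 1 without IQOS 1 or IQOS 2. Of 26 p53 targets 1 was higher, Eda2r, with an adjusted p just under 0.05 and lost in most fits without 1 array, including those without air 1, air 2, air 3, CS 2, IQOS 1, IQOS 2 or IQOS 3. Trp53 itself was at 0.611, 0.604 and 0.693 with CS, 0.654, 0.703 and 0.679 with IQOS and 0.901, 0.889 and 0.913 in air. The exposed groups overlapped and both lay below air, with 0.10 ± 0.07 between them (adjusted p = 0.398). The differences were -0.11 ± 0.07 for Bax (adjusted p = 0.337), 0.00 ± 0.12 for Fas (adjusted p = 0.997), 0.38 ± 0.33 for Cdkn1a (adjusted p = 0.486) and 0.29 ± 0.23 for Bcl2 (adjusted p = 0.448), none of which was called.

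Stress and metabolism lists are given beside the 4.94% of all tested genes called higher and the 5.18% called lower. Nupr1, a stress-induced chromatin protein, was the single call among 31 genes of the unfolded protein and integrated stress response. It was at 29.2, 31 and 37.7 with CS, 45.3, 61.6 and 52.3 with IQOS and 108, 86.4 and 117 in air. Both exposures were below air, and IQOS was 0.70 ± 0.16 above CS (adjusted p = 0.034), a call lost without air 1, CS 1, CS 2, IQOS 2 or IQOS 3. Among 27 sterol and fatty acid synthesis genes 4 were lower and 1 higher. Acacb, which makes the malonyl-CoA that restrains fat burning, was at 1.29, 1.14 and 0.947 with CS, 1.91, 1.72 and 1.82 with IQOS and 1.8, 2.01 and 2.06 in air (0.70 ± 0.12, adjusted p = 0.0128). The list had 0 lower calls without CS 2, 1 without CS 1, CS 3 or IQOS 1 and 2 without air 2, IQOS 2 or IQOS 3. Of 30 cell cycle genes 1 was lower, Ccnb1. Lists with 0 calls in limma were those of interferon-stimulated genes (22 genes, 5 at an unadjusted p under 0.05), oxidative phosphorylation (31 and 3), mast cells, basophils and eosinophils (15 and 1), adipocytes (16 and 5), and red blood cells and platelets (11 and 1). Glucocorticoid-responsive genes had 1 higher and 1 lower among 17, and the goblet, basal and squamous and the dendritic cell lists had 1 lower each among 14 and 16.

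Several of the largest differences fell outside these groups. Awat1, an enzyme of wax ester synthesis, was at 0.472, 0.147 and 0.385 with CS and between 0.00398 and 0.00515 with IQOS, where 0 arrays were well above background, so its signal was at least 13.6-fold lower with IQOS (fitted -6.08 ± 0.38, adjusted p = 0.000592). Moxd2, a monooxygenase relative with 2 CS values, was at least 12.2-fold lower (adjusted p = 0.00132). Cd200r2, a myeloid receptor, was at 0.718, 0.304 and 0.717 with CS, 0.0232, 0.0117 and 0.0216 with IQOS and 0.0152, 0.0293 and 0.0131 in air (-4.90 ± 0.45, adjusted p = 0.00199). The epithelial growth factor Ereg was at 0.427, 0.538 and 0.365 with CS, 0.0128, 0.0347 and 0.0398 with IQOS and 0.0293, 0.0508 and 0.0499 in air (-4.07 ± 0.43, adjusted p = 0.00319). The transcription factor Hnf4a was at 0.388, 0.633 and 0.587 with CS and at 0.0125, 0.0328 and 0.0464 with IQOS (-4.30 ± 0.53, adjusted p = 0.00507). In all 5 the CS arrays stood alone, and the dim IQOS and air values overlapped. Atp13a5, a membrane transport ATPase, was at 0.0616, 0.0725 and 0.0806 with CS and was not well above background on any IQOS or air array, and its signal was at least 3.23-fold lower with IQOS than with CS (fitted -3.63 ± 0.16, adjusted p = 0.000262). Btbd17 was lower by -3.67 ± 0.75 (adjusted p = 0.0252), lost without CS 2, CS 3 or IQOS 2.

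On the higher side, Spon2, a secreted matrix protein, was at 0.474, 0.48 and 0.273 with CS, 1.71, 2.36 and 1.43 with IQOS and 1.48, 4.58 and 1.11 in air (2.18 ± 0.51, adjusted p = 0.0362), a call lost without air 1 or any 1 of the CS or IQOS arrays. The potassium channel Kcna1 (2.01 ± 0.33, adjusted p = 0.0127) and Shisa3 (1.80 ± 0.30, adjusted p = 0.0138) were higher than with CS. Their IQOS arrays also lay above all air arrays, but by only 0.27 (limma adjusted p = 0.666) and 0.50 (adjusted p = 0.376). CS was below air, by -1.73 for Kcna1 (adjusted p = 0.0204) and -1.30 for Shisa3 (adjusted p = 0.0366). Kcna1 was well above background on 1 of 3 CS arrays and Shisa3 on 2, so the differences from CS are set against CS values near background. Fam124b (1.84 ± 0.39, adjusted p = 0.027) was lost without CS 1, CS 2 or any 1 of the IQOS arrays, and with normexp background correction, where it read 0.72 (adjusted p = 0.0512). It was well above background on 1 of 3 CS arrays. The other, brighter probe, which stands for Fam124b in the counts by gene, read 0.59 and was not called (adjusted p = 0.154). Daam2, at least 1.91-fold higher (adjusted p = 0.0142), lost its call without IQOS 2. The other Daam2 probes, which include the brightest, read 0.24 and 0.69 and were not called.

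A further set of genes set the IQOS lungs apart from air and CS alike. Plaat5, a phospholipid acyltransferase, was at 0.437, 0.378 and 0.246 with CS, 1.53, 2.74 and 2.14 with IQOS and 0.265, 0.273 and 0.34 in air. CS and air overlapped, and IQOS was higher than CS by 2.60 ± 0.26 (adjusted p = 0.00277) and than air by 2.84 (adjusted p = 0.00543). D14Ertd670e, a transcript of unassigned function, was at 0.0721, 0.0637 and 0.0533 with CS, 0.135, 0.275 and 0.294 with IQOS and 0.0478, 0.052 and 0.0841 in air (1.82 ± 0.33 from CS, adjusted p = 0.0171, and 1.90 from air, adjusted p = 0.0263), a call lost without CS 2, CS 3 or IQOS 2. Tbx20, a transcription factor of heart and vessel, was at 0.00762, 0.0213 and 0.00576 with CS, 0.0936, 0.365 and 0.114 with IQOS and 0.0163, 0.028 and 0.0241 in air. It was well above background on 0 CS arrays and at least 5.88-fold higher with IQOS (fitted 4.01 ± 0.62, adjusted p = 0.0106). The other, brighter probe, which stands for Tbx20 in the counts by gene, read 0.57 and was not called (adjusted p = 0.392). Heart muscle markers, given above, were 0 of 18 called, and their part in the Tbx20 difference was not tested. Since the IQOS arrays had a slide of their own, a difference of IQOS from both groups cannot be told apart from a difference between slides.

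**Figure D5:**
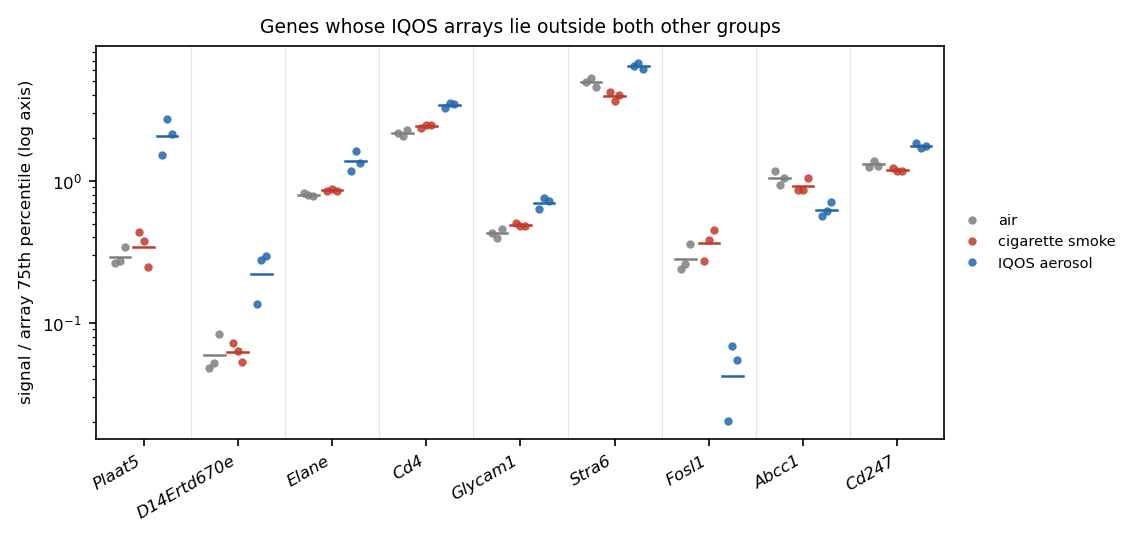
Signal on each array, as a multiple of the array's 75th percentile on a log axis, of 9 genes whose IQOS arrays (blue) lie outside both air (grey) and cigarette smoke (red); bars are means of log2 values. Plaat5, D14Ertd670e, Elane, Cd4, Cd247, Glycam1 and Stra6 are higher with IQOS aerosol and Fosl1 and Abcc1 lower, and the IQOS arrays alone lay on the second slide.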

How the data were processed

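Per the labels, total RNA was extracted with miRNeasy kits, and 100 ng gave the Cy3-labelled cRNA. The deposited spot intensities, which the headers of the authors' files trace to Feature Extraction 10.7.1.1 of Agilent, are background-subtracted signals not normalized between arrays. The authors' deposited value table is a ratio, on a linear scale, to each array's 75th percentile, as found from the values (column medians 0.114 to 0.121). It served as an alternative.

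Outlier spots were dropped, spots of a probe averaged as log2, and each array's log2 75th percentile over non-control probes (973.3 to 1098 in signal) subtracted. The precision of a value depends on signal over background and on the number of arrays, and 0 spots were saturated. A probe was kept when every group had values on at least 2 arrays and some group was well above background on all of its arrays, leaving 37258. Accessions matched to RefSeq named 32994 of 56605 probes (58.3%). One linear model over the 9 arrays used limma (version 3.58.1, lmFit and eBayes) under R 4.3.3, with files read by the data.table package (version 1.17.8), and calls used Benjamini-Hochberg adjusted p under 0.05 over all probes. The fit was tested on simulated data. Called probes of the same gene opposed each other for 4 of 209 genes with several (B3galnt2, Dab2, Kif5b and Ptges).

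The genes named are the 12 largest called differences each way with separate groups, up to 4 per list, called members of lists, and a fixed set (Cyp1a1, Cyp1b1, Ahrr, Nqo1, Mmp12, Gpnmb, Cdkn1a, Bax, Fas, Bcl2, Trp53 and Eln). The 12 each way were taken among probes with a gene symbol that is not a predicted gene or clone name. Larger differences of other probes are therefore not named: of the 2 called probes that passed 8-fold higher, only that of Tbx20 is. Called list members beyond the 4 were named after their values were seen. The comparison and the 39 lists, with 836 of 885 symbols tested, were chosen with earlier results of these data known, and some genes stand on several lists. Alternatives covered background correction (normexp, offset 50, on median rather than the planned mean spot signals), normalization, filters, the matrix values, the variance model, the replicate block, array row, the arrays fitted, the probes of a gene and each array left out. A result for 1 gene is not reported here.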

Additional observations from a re-analysis of the deposited data

How the results depend on the processing

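Of the 162 called genes or probes followed, 74 kept their call with any single array left out. With single arrays left out, the called probes numbered 1273 to 3214, the higher 788 to 1918, the lower 478 to 1381 and those at least 2-fold 303 to 513. With array row as a covariate 83 were called, 69 higher, 14 lower and 75 at least 2-fold, of which 31 were among the 3590. That row term rests on air 3 against air 1 and air 2. The IQOS and CS arrays alone gave 1769 calls (1075 higher and 694 lower), and no filter on dim probes gave 1658 (1009 higher and 649 lower), where 56589 probes shared the adjustment. Normexp background correction gave 2462 lower calls and 213 at least 2-fold, and moved the share of calls that were higher from 59.2% to 49.3%; the cause was not tested. Median centring gave 50.5% and quantile normalization 59.9%. Whether the replicate numbers pair the arrays was not settled. The deviations of same-numbered IQOS and CS arrays correlated at 0.13, 0.01 and 0.16. Those of differently numbered arrays correlated at 0.12, -0.25, -0.11, 0.11, -0.04 and -0.13. The fit with the replicate block gave 2722 calls, 2349 of them shared with the 3590. The block moved the B cell list from 1 higher call to 10, the monocyte list from 3 lower calls to 1 and the club cell list from 5 lower calls to 3, and it ended the Arntl call (adjusted p = 0.0595). None of the 162 followed genes or probes changed sign under an alternative. Among genes that were not called, Cdkn1a read -0.25 and Car2 -0.09 with array row as a covariate, Trp53 0.00 with normexp, and Fas -0.07 with normexp, -0.02 with median centring, -0.01 with the mean of its probes and -0.13 to 0.08 with single arrays left out. No scaling moved the median of all probes by over 0.1.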
